A study of Schizosaccharomyces japonicus with 2 samples.

Results

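In the chromosome arms of Schizosaccharomyces japonicus, small RNA was found at low density on a single strand in 957 windows of 1 kb. These sparse one-strand windows were chosen by rule from the 10083 windows of 7 arm segments on supercontigs 1, 2 and 3, of which 9204 held any read. A window was taken if it had under 100 RPM in each library, 20 or more reads over both libraries, and below 10% of its pooled reads on the minor strand. RPM are reads scaled to a total of 1000000 reads of 21 to 28 nt, leaving out a dense region at bases 1 to 37000 of supercontig 3, called the block. The rule thus fixed the density and the strand bias within a window, and its 957 windows, or 9.49% of all arm windows, are a description and not a finding.

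The series holds 1 group of 2 libraries, named replicate 1 and replicate 2, from wild-type cells of the strain yFS275 grown to log phase, so no conditions were compared. Small RNA of 10 to 40 nt was enriched from 40 µg of total RNA, and the ligations took only RNA with a 5′ monophosphate and a 3′ hydroxyl. Replicate 1 held 3086539 mapped reads and replicate 2 held 3492513. The reads outside the block, to which RPM are scaled, numbered 889190 and 2457514. The labels do not say whether the replicates were separate cultures, and their spread may be technical.

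Small RNA of fission yeasts is best known from RNA interference, in which Dicer cuts double-stranded RNA and Argonaute carries the products to matching transcripts, largely at centromeric repeats and transposons. Dicing of a duplex leaves products of both strands. Fragments of a single-stranded RNA lie on the strand that was transcribed. Both kinds of end can be ligated if they carry the phosphate and hydroxyl that the protocol required.

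Single-strandedness was the usual state of the sparse arm windows. Of the 1065 windows under 100 RPM in each library that had 20 or more reads, 89.9% had a minor strand below 10%, and the other 108 are called sparse both-strand windows here. Among the 78 arm windows at 100 RPM or more in each library the same limit was met by 69.2%, or 54 windows, called dense one-strand windows. As the strand share chose the windows, these percentages are given without a test. At the limits of the rule, 44 windows with exactly 20 reads were inside and 50 with 19 reads were outside. The densest windows inside reached 97.8 RPM in a library and the next outside 100.1 RPM. The highest minor share inside was 9.80%, and 5 windows at exactly 10% were outside.

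The sparse one-strand windows carried few reads each. Together they held 24703 reads of replicate 1 and 29076 of replicate 2. Outside the block this was a share of 2.78% and 1.18% (1.98% ± 1.13, SD, n = 2). The 54 dense one-strand windows carried 8.03% and 4.54%, or 3.69% and 2.94% without bases 3547001 to 3548000 of supercontig 1, a window of 38600 and 39263 reads. A sparse one-strand window had a median of 18 reads in replicate 1 (range 2 to 87) and 21 in replicate 2 (range 2 to 209), which is 20.2 and 8.55 RPM. Pooled over both libraries the median was 39 reads, with 310 windows under 30 reads and 144 windows with 100 or more. With so few reads, a single window fixes its strand well and its span profile or its fine structure poorly.

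Every one of the 957 windows had reads in both libraries, and with each library taken alone its major strand was the same in both. On the minor strand lay 248 reads of replicate 1 (1.004%) and 557 of replicate 2 (1.92%), and 541 windows had none in either library. Since the rule used the pooled strands, the strand was also read in a library that played no part in the choice. Chosen on replicate 1 alone by the same limits, 457 windows had 97.9% of their 22531 reads in replicate 2 on the strand found in replicate 1. The major strand was the same in 456 of them and 1 was tied. Chosen on replicate 2 alone, 612 windows had 99.2% of their reads in replicate 1 on the chosen strand, which was the major one in 611. Counting only sequences with a single best place, the major strand was the same in 96 of 97 and in 448 of 449 windows. RPM were there scaled to these sequences alone, so 100 RPM stood for fewer reads than in the choice of the 457 and 612 windows. The strand of a sparse window was therefore repeated between the libraries in nearly every case.

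**Figure D1:**
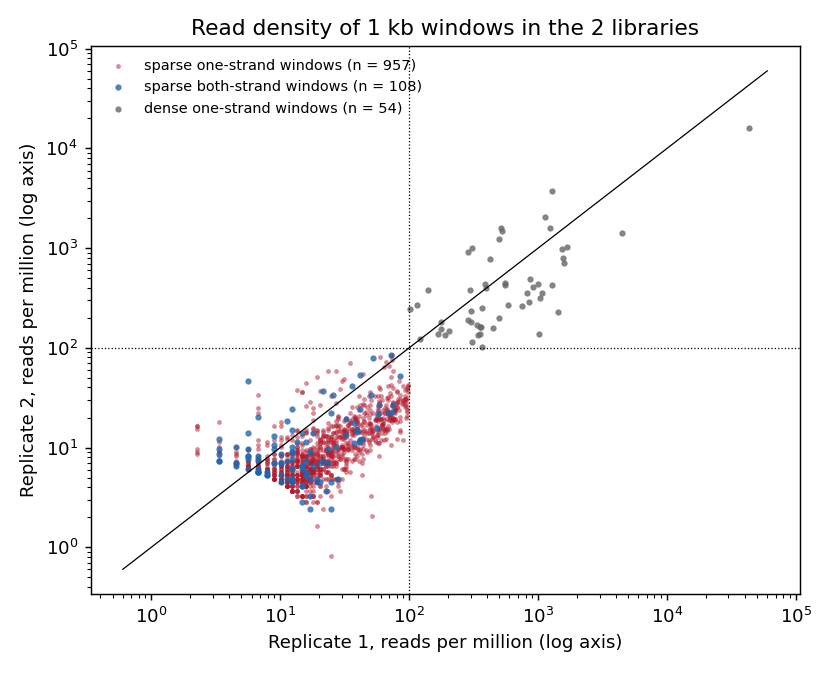
Each point is a 1 kb window, with its RPM in replicate 1 on the horizontal and in replicate 2 on the vertical log axis. Dotted lines mark 100 RPM and the solid line equal RPM. Most sparse one-strand windows lie under the line, with a median ratio of 0.400 of replicate 2 over replicate 1.

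On the RPM scale the sparse one-strand windows were lower in replicate 2. The median ratio of replicate 2 over replicate 1 was 0.400 (interquartile range 0.296 to 0.579, log2 -1.32), and 869 of 957 windows were lower in replicate 2. In numbers of reads the libraries were close, with a median ratio of 1.11 and 536 windows with more reads in replicate 2. The scales differ by their totals, 2457514 reads for replicate 2 and 889190 for replicate 1, so that 100 RPM stands for 245.8 reads of replicate 2 and 88.9 of replicate 1. Sparse both-strand windows had a median RPM ratio of 0.655 and dense one-strand windows of 0.632. Windows with 100 RPM or more in 1 library had 0.305, and 10 of these 125 were higher in replicate 2. Their other library lies below 100 RPM by definition, so the choice itself moves this ratio away from equality. Windows under 20 reads had 0.482, over the 5480 of 7936 with reads in both libraries. Replicate 1 had reads in 6137 of the 7936 and replicate 2 in 7279, so those left out mostly lacked reads of replicate 1. The 24 dense both-strand windows went the other way, with a median of 2.02 and 15 of them higher in replicate 2. With 1 library on each side, none of these ratios was tested.

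The windows lay along all 7 arm segments. On supercontig 1 they made up 8.66% of the windows from base 70001 to 1790000 (149 windows) and 8.86% from base 2031001 to 4221000 (194 windows). On supercontig 2 they made up 9.75% from base 70001 to 1803000, 9.70% from base 2023001 to 2384000 and 10.05% from base 2393001 to 3796000, with 169, 35 and 141 windows. On supercontig 3 they made up 7.88% from base 70001 to 819000 (59 windows) and 10.9% from base 1038001 to 2965000 (210 windows). The share thus differed little between segments. Within them, 98 stretches of 100 kb held 1 to 20 windows each, with a median of 9. The longest distance without such a window, 110 kb, lay in the second segment of supercontig 1. Both strands of the assembly were used alike, with 494 windows on the plus and 463 on the minus strand. The segment from base 70001 to 819000 of supercontig 3 was the least even, with 39 plus and 20 minus windows.

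Neighbouring windows mostly shared their strand, which the rule did not ask for. Of the 957 windows, 588 (61.4%) touched another one. Among the 347 touching pairs, 325 (93.7%, 95% Clopper-Pearson interval 90.6 to 96.0) had the same major strand. For windows 2 kb apart the share was 75.0% of 172 pairs and at 3 kb 63.8% of 130 pairs. At each whole kb from 4 to 20 kb it lay between 42.1% and 64.9%, and the intervals included 50% except at 12 kb (64.9%, 53.2 to 75.5, 77 pairs). The intervals cover counting error only, and pairs that share a window are not independent. The share over all adjacent arm windows was not counted, so this sharing is not shown to be particular to the sparse one-strand windows. The 22 touching pairs on opposite strands were plus followed by minus in 13 cases, which points the strands toward each other, and minus followed by plus in 9.

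**Figure D2:**
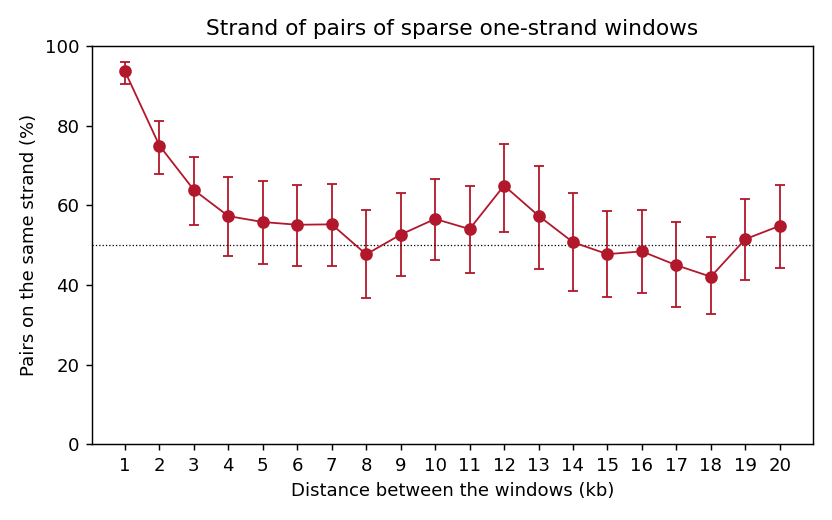
Share of pairs of sparse one-strand windows that lie on the same strand, by the distance between the windows in kb. Bars are 95% Clopper-Pearson intervals and the dotted line marks 50%. The share was 93.7% at 1 kb and 57.3% at 4 kb, and lay from 42.1% to 64.9% beyond.

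Neighbours outside the class of sparse one-strand windows shared the strand in part. Next to a sparse one-strand window, neighbours of under 20 reads had a major strand in 966 cases, and this was the same strand in 697 of them (72.2%). A neighbour between 2 such windows was counted from each side. All windows under 20 reads had a median of 2 reads in replicate 1 and 3 in replicate 2, so their major strand often rests on few reads. No share over all adjacent arm windows was at hand for comparison. Of 60 sparse both-strand neighbours, 40 had the same major strand. Of 52 neighbours at 100 RPM or more in 1 library, 39 had the same and 13 the opposite one. Of 19 dense one-strand neighbours, 7 had the same strand and 12 the opposite one. A further 84 neighbours had no read in either library.

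Touching windows on the same strand formed 632 runs, of which 398 were a single window, 164 had 2, 57 had 3, 7 had 4, 4 had 5 and 2 had 6. The 5 longest were described by rule, with ties ordered by their reads. On the plus strand of supercontig 1, bases 3394001 to 3400000 formed a run of 6 windows with 16, 19, 23, 36, 63 and 75 reads in replicate 1. In replicate 2 the same windows had 8, 23, 16, 36, 52 and 35 reads. The density in this run was thus low at its left and higher toward its right in both libraries. Its reads spanned 5990 nt, with 3 reads on the minus strand. On the minus strand of supercontig 2, bases 3067001 to 3073000 formed the other run of 6, with 14 to 27 reads per window in replicate 1 and 16 to 46 in replicate 2. Not a single one of its 245 reads lay on the plus strand over 5978 nt, and all had a single best place.

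The runs of 5 windows were similarly one-sided. At bases 2801001 to 2806000 of supercontig 2 there were 127 reads in replicate 1 and 235 in replicate 2, of which 3 lay on the minor strand. The window from base 2803001 was the highest of that run in both libraries, with 36 and 80 reads. At bases 3245001 to 3250000 of supercontig 1 there were 82 and 112 reads, with 5 on the minor strand. At bases 2760001 to 2765000 of supercontig 3 there were 100 and 70 reads, with 1 on the minor strand, and 76.9% of the major-strand reads had a single best place. What these stretches encode was not analysed here.

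**Figure D3:**
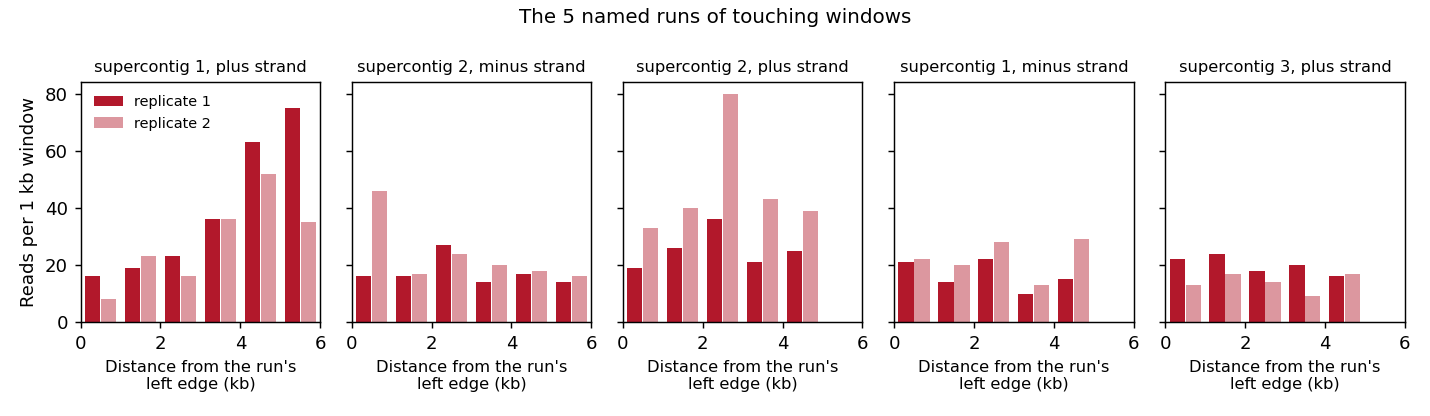
Reads per 1 kb window along the 5 longest runs of touching windows on the same strand, against the distance in kb from the left edge of each run. Full bars are replicate 1 and pale bars replicate 2. The first run reaches 75 reads in replicate 1 at its right end, and the third peaks at 80 reads in replicate 2.

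The 10 densest windows by mean RPM of the libraries differed in how their reads were spread. The leading position of a window is the 5′ position with the most pooled reads. The densest, bases 2047001 to 2048000 of supercontig 3, had 66 reads in replicate 1 and 209 in replicate 2, all on the minus strand. None had a single best place, so this window stands for one of several copies. That position had 13 reads of replicate 1 (19.7%) and 148 of replicate 2 (70.8%). Bases 1416001 to 1417000 of supercontig 3, with 53 and 199 reads, likewise held no read of a single best place. Its leading position had 78 reads of replicate 2 (39.2%) and none of replicate 1. In bases 2833001 to 2834000 of supercontig 3, with 87 and 102 reads, a single best place was found for 28.0%.

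The other dense members had a single best place for most of their reads. Bases 3160001 to 3161000 of supercontig 2 had 66 and 185 reads, all on the plus strand. They began at 156 different positions, of which the most used held 3.59%. Bases 1174001 to 1175000 of supercontig 2 had 62 and 161 reads at 112 positions on the minus strand, with none on the other. Bases 3262001 to 3263000 of supercontig 2 had 86 and 95 reads at 102 positions, and 75.1% of them had a single best place. Their reads thus came from many different places in the window and not from 1 small RNA.

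Reads were more focused in other members of the 10. Bases 2514001 to 2515000 of supercontig 1 had 87 and 105 reads, of which 24.1% and 33.3% began at the leading position. Bases 3443001 to 3444000 of supercontig 2 had 64 and 202 reads, with 10.9% and 21.3% there. Bases 1576001 to 1577000 of supercontig 3 had 59 and 179 reads, with 28.8% and 15.1% there and 13 reads on the minor strand. Bases 2244001 to 2245000 of supercontig 2 had 86 and 98 reads, with 10.5% and 9.18% there. Of these 10 windows, the 2 without a read of a single best place and the window at base 2514001 had over 25% of their pooled reads at 1 position.

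In most sparse one-strand windows the reads were scattered over many 5′ positions. The pooled reads of a window began at a median of 30 positions (range 3 to 156). By library, the most used 5′ position held a median of 11.1% (replicate 1) and 10.5% (replicate 2) of a window's reads (10.8% ± 0.414, SD, n = 2). In dense one-strand windows it held 27.6% and 34.7%. The scatter was not particular to the sparse one-strand windows. This position held 15.4% and 11.8% in sparse both-strand windows and 11.2% and 11.8% in dense both-strand windows. In windows at 100 RPM or more in 1 library it held 9.17% and 8.89%. Windows under 20 reads had 50% and 33.3%, with a median of 2 and 3 reads. Sequences seen once made up 92.0% and 91.6% of the distinct sequences in the sparse one-strand windows and 68.2% and 65.7% of those in the dense one-strand windows. In sparse both-strand windows they made up 91.7% and 89.5%, with 1.33 and 1.63 reads per 5′ position. A 5′ position of the sparse one-strand windows was backed by 1.30 and 1.41 reads on average, against 26.02 and 32.3 in the dense one-strand windows, or 12.04 and 21.2 without the window at base 3547001 of supercontig 1. These measures depend on the number of reads, and the part that the difference in density has in them was not tested.

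Few of the members were dominated by a single 5′ position. In 30 windows that position held at least 50% of the pooled reads, and in 856 it held less than 20%. Among the 144 windows with 100 reads or more, the 5 with the most focused reads were described by rule. Bases 1879001 to 1880000 of supercontig 3 had 12 reads in replicate 1 and 92 in replicate 2. There 11 and 79 of them began at base 1879763 of the minus strand, most often with a span of 21 nt. Bases 363001 to 364000 of supercontig 3 had 44 and 66 reads, with 28 and 50 beginning at base 363609, chiefly with a span of 22 nt. Both windows had a single best place for nearly all reads.

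The other focused windows had almost no read of a single best place, and most reads at their leading position came from replicate 2. At bases 1588001 to 1589000 of supercontig 3, 151 of 173 reads in replicate 2 were of 23 nt from a single position, and none of the 31 reads in replicate 1 began there. At bases 3510001 to 3511000 of supercontig 1, 121 of 144 reads began at a single position in replicate 2 and 6 of 21 in replicate 1. No other position of that window held more reads of replicate 1. At bases 4202001 to 4203000 of supercontig 1 the numbers were 68 of 81 in replicate 2 and 1 of 22 in replicate 1. In both of the last windows a single span was most frequent at that position, 25 nt with 90.6% and 24 nt with 94.2% of the pooled reads there. A sequence with several equal places was listed at one of them, which need not be the same one for both libraries.

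Most reads of the members had a single best place. In sparse one-strand windows a single best place was listed for 85.5% (replicate 1) and 84.1% (replicate 2) of the reads (84.8% ± 1.01, SD, n = 2), against 82.4% and 72.1% in sparse both-strand windows and 21.3% and 33.001% in dense one-strand windows. Without the window at base 3547001 of supercontig 1 the dense one-strand windows had 46.3% and 50.9%. In 722 windows every read had a single best place. In 83 windows under 50% of the reads did, and 25 of these had none. The 83 windows had a median of 80 pooled reads and 18.9% at their leading 5′ position, while the 722 had 34 reads and 7.69%.

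**Figure D4:**
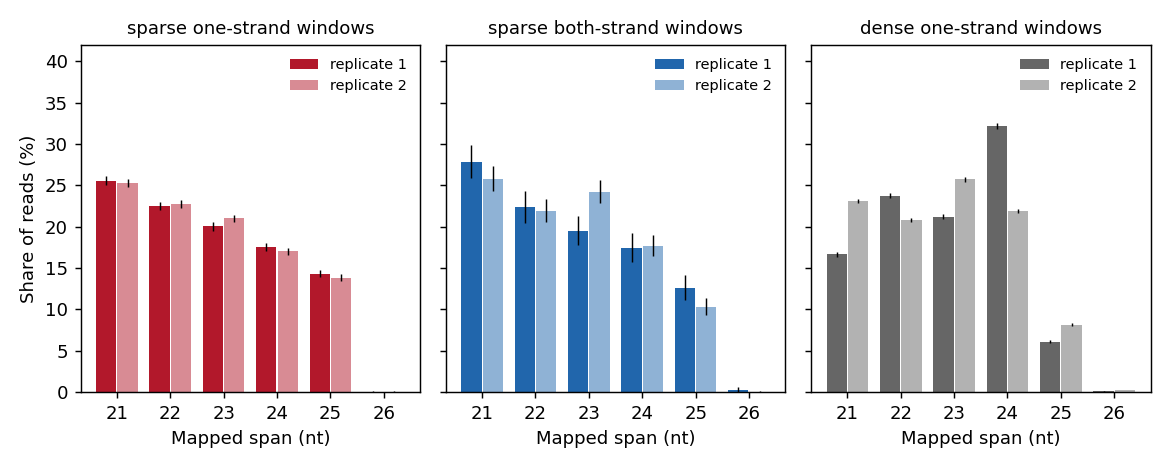
Share of reads by mapped span in nt, in sparse one-strand windows, sparse both-strand windows and dense one-strand windows. Full bars are replicate 1, pale bars replicate 2, and error bars are 95% Clopper-Pearson intervals for counting error. In the sparse one-strand windows the share steps down from 25.6% and 25.3% at 21 nt to 14.3% and 13.8% at 25 nt.

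Spans in the sparse one-strand windows became less frequent with length, in small steps from 21 to 25 nt and then in a sharp drop. The share was 25.6% in replicate 1 and 25.3% in replicate 2 at 21 nt, 22.5% and 22.8% at 22 nt, 20.03% and 20.99% at 23 nt, 17.5% and 17.01% at 24 nt, with 14.3% and 13.8% for 25 nt. Only 0.0688% and 0.0791% of the reads had 26 nt, and 0.0081% and 0.00688% had 27 nt. The most frequent span was the shortest of the labelled range, so the data do not show whether RNA below it was still more abundant. The libraries differed by at most 0.967 percentage points at any span. At 23 nt the mean was 20.5% ± 0.684 (SD, n = 2). Neither the steps nor the drop was particular to the sparse one-strand windows. Windows under 20 reads stepped down from 26.7% and 25.97% at 21 nt to 13.3% and 13.1% at 25 nt. Sparse both-strand windows stepped down in replicate 1, from 27.8% at 21 nt to 12.6% at 25 nt. In replicate 2 they rose from 21.9% at 22 nt to 24.2% at 23 nt. In every other class 26 nt held at most 0.292% of a library's reads. In sparse both-strand windows 23 nt held 19.5% in replicate 1 and 24.2% in replicate 2, and in dense one-strand windows 21.2% and 25.7%. Dense one-strand windows had their most frequent span at 24 nt in replicate 1, with 32.2%, and at 23 nt in replicate 2. Without the window of most reads, bases 3547001 to 3548000 of supercontig 1, the dense one-strand windows had 23.2% of their reads at 24 nt in replicate 1 and 30.7% at 23 nt in replicate 2. The window classes were read from the same 2 libraries, and no test of these differences was made.

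The minor-strand reads of the sparse one-strand windows, 248 in replicate 1 and 557 in replicate 2, were most often of 22 nt, with 31.9% and 25.1%. On the major strand 22 nt held 22.4% and 22.7%. At 21 nt lay 21.4% and 24.1% of the minor-strand reads, set beside 25.6% and 25.3% of the major-strand reads. In replicate 2 the lead of 22 nt over 21 nt on the minor strand was thus narrow, among 557 reads. For 23 nt these shares were 16.9% and 22.8% on the minor and 20.1% and 20.96% on the major strand.

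Ends of different reads on the major strand met end to end more often than at neighbouring offsets. For each distinct mapped place, the 5′ ends downstream in the same window were counted by their distance from the base just after its last base. In replicate 1, 1520 pairs met exactly, against a mean of 980 ± 59.2 (SD) over the 10 offsets within 5 nt, a ratio of 1.55. In replicate 2, 1303 pairs met, against 920.8 ± 63.2, a ratio of 1.42. The exact meeting was the highest of the 21 offsets counted in replicate 1. In replicate 2 only an overlap of 10 nt was higher, with 1386 pairs. Restricted to sequences with a single best place, the ratio was 1.503 in replicate 1 and 1.44 in replicate 2.

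**Figure D5:**
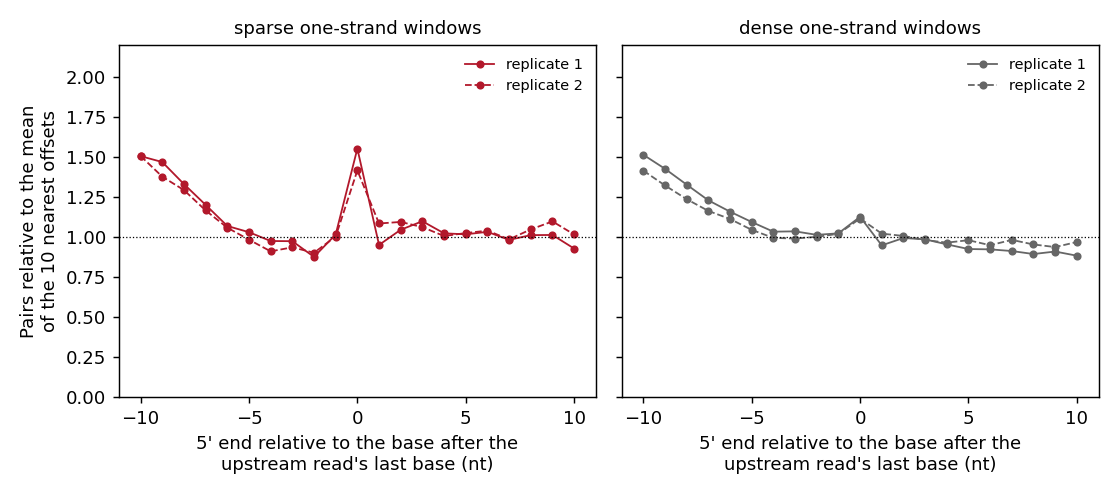
Pairs of an upstream read and a downstream 5′ end on the major strand, by the offset in nt of that 5′ end from the base after the upstream read, relative to the mean of the 10 offsets within 5 nt. Negative offsets are overlaps. At 0 the sparse one-strand windows reach 1.55 and 1.42, and the dense one-strand windows 1.13 and 1.11. Places are more crowded in the dense windows, so the heights do not compare meetings per place.

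The same meeting of ends was seen across the libraries. Upstream reads of replicate 1 met 5′ ends of replicate 2 at a ratio of 1.37 (1266 pairs), and upstream reads of replicate 2 met those of replicate 1 at 1.51 (1393 pairs). In sparse both-strand windows the ratios within a library were 1.55 and 1.37, from 68 and 79 pairs. In dense one-strand windows they were 1.13 and 1.11, from 1081 and 1171 pairs. There 4506 and 5359 distinct places gave means of 960.5 and 1050.4 pairs at the neighbouring offsets. The sparse one-strand windows gave 980 and 920.8 from 20969 and 22396 places. Crowded places raise this mean, so the ratios do not compare between classes how often ends met per place. As places in one window share their source, these ratios are descriptions of the 2 libraries and carry no p.

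Distinct 5′ positions of a window also lay close together. Pairs 1 nt apart were 4.06 times as frequent in replicate 1 and 4.52 times in replicate 2 as the mean of pairs 41 to 100 nt apart. Pairs 10 nt apart had ratios of 1.97 and 1.96, and pairs 20 nt apart 1.12 and 1.05. At 21 nt, the shortest span counted, they were higher again, at 1.29 and 1.20. There was no step of 3 nt: of the pairs 4 to 60 nt apart, 33.4% and 32.8% were a multiple of 3 nt apart. The numbers of 5′ and 3′ positions were alike, with 18745 5′ and 18482 3′ positions in replicate 1 and 20047 and 19663 in replicate 2. Close spacing was not particular to the sparse one-strand windows. At 1 nt the ratios were 4.47 and 5.35 in sparse both-strand windows and 4.59 and 3.96 in dense one-strand windows. At 21 nt they were 1.38 and 1.52 in sparse both-strand windows and 1.92 and 1.55 in dense one-strand windows.

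Coverage of the windows was partial. The major-strand reads covered a median of 22.2% of the bases of a window in replicate 1 (interquartile range 15.3 to 30.4) and 24.0% in replicate 2 (18.1 to 32.0). Of the 5′ positions, 4007 were used in both libraries, which is 21.4% of those of replicate 1 and 19.99% of those of replicate 2, and these held 29.8% and 32.9% of the major-strand reads. In dense one-strand windows 64.8% and 55.4% of the 5′ positions were shared, and they held 96.8% and 96.6% of the reads. With 1.30 and 1.41 reads per position in the sparse windows, the depth limits how many positions can be found in both libraries.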

How the data were processed

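Small RNA of wild-type S. japonicus was sequenced in 2 libraries. Each deposited file lists distinct sequences at 1 place each. The submitters' processing notes name BWA; its version, its settings and the build used were not given in the sources used here. The number after the hyphen in a sequence's name was read as its copies, unnormalized. Per the deposited files, the mapping score lies between 0 and 37, and 0 was read as several equal places. Any score above 0 was counted as a single best place, however close other places came. Places count from 0 in the deposited files, and positions are given here counting from 1. A read belonged to the window of its leftmost base.

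No genome or annotation of this build was used here, so no sequence is shown and no gene is named. Counts, shares and distances were computed with Python 3.11.15, numpy 2.4.6, pandas 2.3.3 and scipy 1.17.1, and the steps were tested on simulated reads. Intervals cover counting error only, since PCR copies are not independent molecules. Named windows were the 10 with the highest mean RPM, the 5 longest runs, the 5 most focused of those with 100 reads or more, and those at the limits of the rule. The members, the rule and the measures were chosen with earlier results of these data known. The measures of ends that meet, of spacing, of coverage, of shared positions and of strand between libraries and with distance beyond touching windows were added after the data were examined, as was leaving out the dense window of most reads. With 1 group, no test between conditions was possible.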

Additional observations from a re-analysis of the deposited data

Results flagged for a closer look

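Reads of 19 and 20 nt, shorter than the labelled sizes and left out of all windows, were also listed in the sparse one-strand windows. There were 42 in replicate 1, in 32 windows, and 122 in replicate 2, in 52 windows, and no control library was at hand. Of these, 35 and 107 lay on the major strand of their window.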

How the results depend on the processing

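No paired analysis was possible because the series holds a single group. The number of 957 windows fell to 595 with reads of a single best place, 453 with each position counted once and 383 with at least 50 reads, and lay at 457 to 612 with each library alone, where fewer reads can reach 20. With reads of a single best place, RPM were scaled to those reads alone, so 100 RPM stood for fewer reads. The 595 windows are thus not a count of those with certain placement, as 722 of the 957 held only such reads. The share of touching pairs on the same strand (93.7%) came to 98.7% for sequences with a single best place, 96.7% with at least 50 reads, 96.8% under 50 RPM, and 90.5% to 93.04% with each library alone. The share of 23-nt reads (20.5%) was 19.7% to 21.03% with each library alone. That at 21 nt (25.4%) was 25.8% with a single best place, 25.2% with positions counted once, 25.8% with windows shifted by 500 nt, 25.6% under 50 RPM and 25.4% to 25.7% with each library alone. Reads of a single best place (84.8%) were 93.99% with positions counted once, 79.9% with at least 50 reads, 91.0% under 50 RPM and 75.7% to 81.3% with each library alone. The median RPM ratio (0.400) was 0.543 with positions counted once, 0.373 with at least 50 reads and 0.431 under 50 RPM. The leading 5′ position (10.8%) held 11.8% with a single best place, 8.96% with at least 50 reads, 11.4% under 50 RPM and 9.38% to 9.52% with each library alone. Where no cause is given, it was not tested. Of 69 values, 41 stayed within the spread between the libraries, the interval or, for numbers of windows, 1.5 times. This tally does not grade how stable a result was, since the spread differed by measure. For the share of reads carried (1.98%) it was 1.13, so 1.35% with at least 50 reads and 1.16% under 50 RPM counted as unchanged. At 21 nt it was only 0.193.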
